A study of Mus musculus with 6 samples.

Results

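Macrophages, neutrophils, dendritic cells and B cells each express a characteristic set of genes, and 40 such genes were followed in RNA of sorted CD4 single-positive thymocytes, the late-stage thymic T cells that carry CD4 but no CD8 at their surface. The 40 genes were taken as a named list, each by its probe set with 1 gene symbol and the highest mean, and they are 40 of the 19938 genes tested. They comprise 12 genes of macrophages and monocytes, 10 of neutrophils, 9 of dendritic cells and antigen presentation and 9 of B cells. Each of the 40 was represented by a single probe set of its own. Itgam was also listed on 3 probe sets with several symbols, which were not used.

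Expression was measured on 6 arrays, 3 labelled wildtype (WT) and 3 labelled Bach2 knockout (Bach2 KO), all of male mice on the C57BL/6 background. Per the labels, both kinds of thymocyte developed side by side in male Rag1 knockout recipients, irradiated at 8 weeks of age and given equal parts of Ly5.1-positive wildtype and Ly5.1-negative Bach2 knockout bone marrow from donors aged 8 weeks. The cells were sorted 2 months later, and the design text states that the samples came from separate mice. The wildtype cells were sorted as Ly5.1-positive and the knockout cells as Ly5.1-negative, Ly5.1 being an allele of the surface protein CD45. Rag1 knockout recipients make no mature T or B cells of their own but do make myeloid cells. The labels do not give the recipients' own Ly5 allele, so recipient myeloid cells that survived irradiation cannot be assigned to either gate. In a bulk sample, fewer cells of a type and less RNA per cell cannot be told apart.

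The thymus holds macrophages that engulf dying thymocytes, dendritic cells that present self antigens and a small number of B cells, and material of these cells can stay attached to thymocytes during a sort. Macrophages are known for lysozyme and the complement protein C1q, neutrophils for their granule proteins, dendritic cells for MHC class II, and B cells for the signalling chains of their antigen receptor. Some of these genes are also transcribed in T cells. Bach2 encodes a transcriptional repressor that binds DNA as a partner of small Maf proteins at sites that overlap those of AP-1, and in lymphoid progenitors it is known to hold myeloid genes down.

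Of the 40 genes, 2 were higher in knockout than in wildtype cells, both from the macrophage and monocyte group, and 0 were lower (limma, Benjamini-Hochberg adjusted p under 0.05 over all 19938 genes, two-sided). The 2 were Plaur, the receptor of the protease urokinase, and Lyz2, the lysozyme of myeloid cells. Over all genes tested, 0.351% were called higher and 0.216% lower, against 5.0% and 0.0% of the 40. The 3 knockout values all lay above the 3 wildtype values for 6 of the 40 genes, 15.0% against 5.13% of all genes, and all below them for 2 genes, 5.0% against 6.57%. At an unadjusted p under 0.05 there were 7 higher and 2 lower members, 17.5% and 5.0%, against 3.04% and 3.87% of all genes. The median difference was 0.05 on the log2 scale over the 40 genes and -0.01 over all genes. The 40 genes and the further lists below were chosen with earlier results of these data known. Such shares therefore describe the lists and do not test them.

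The stretches of DNA before the starts of Plaur and Lyz2 are shown because these are the 2 members that changed, and those of H2-Aa and H2-Eb1 because their values moved together from array to array. Each is the 250 bases before the gene's start in RefSeq (assembly GRCm38.p6), written 5′ to 3′ on the gene's own strand. In the first pair, capitals mark TGANTCA on either strand, the core bound by AP-1 and by Bach2 with small Maf proteins. In the second pair they mark CTGATTGG on either strand, which contains the Y box of MHC class II promoters.
Plaur (chr7:24462233-24462482, plus strand): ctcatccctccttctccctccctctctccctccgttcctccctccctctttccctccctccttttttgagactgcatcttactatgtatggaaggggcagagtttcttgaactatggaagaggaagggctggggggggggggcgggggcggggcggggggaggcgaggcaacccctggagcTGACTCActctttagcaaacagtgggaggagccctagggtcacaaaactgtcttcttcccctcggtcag
Lyz2 (chr10:117282273-117282522, minus strand): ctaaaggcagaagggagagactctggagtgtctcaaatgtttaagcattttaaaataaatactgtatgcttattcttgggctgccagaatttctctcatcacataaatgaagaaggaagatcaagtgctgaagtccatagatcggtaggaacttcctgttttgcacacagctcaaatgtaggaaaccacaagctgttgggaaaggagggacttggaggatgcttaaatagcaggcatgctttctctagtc
H2-Aa (chr17:34287824-34288073, minus strand): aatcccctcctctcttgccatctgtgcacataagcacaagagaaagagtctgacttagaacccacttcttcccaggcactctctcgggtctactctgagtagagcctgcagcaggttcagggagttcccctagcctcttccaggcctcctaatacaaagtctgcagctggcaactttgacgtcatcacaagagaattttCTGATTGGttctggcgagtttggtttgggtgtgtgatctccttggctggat
H2-Eb1 (chr17:34305617-34305866, plus strand): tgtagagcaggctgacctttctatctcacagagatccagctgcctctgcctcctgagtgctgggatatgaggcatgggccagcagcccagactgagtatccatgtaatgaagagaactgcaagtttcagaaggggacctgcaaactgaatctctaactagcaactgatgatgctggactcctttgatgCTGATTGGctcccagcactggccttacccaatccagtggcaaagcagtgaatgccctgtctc

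The Plaur window held 1 match to TGANTCA, read as TGACTCA, beginning 69 bases before the start, and the Lyz2 window held 0. Windows were listed for 32 of the 40 genes, 36 windows in all. Among these, TGANTCA was in 5 windows of 4 genes (Plaur, Cd68, Itgax and Fcer2a), 13.9% against 6.75% of all 32851 windows of this length. CTGATTGG was in the windows of H2-Aa, H2-Eb1 and Fcer2a, 8.33% against 3.83% of all windows. No match was found for Cd74, whose values moved with those of H2-Aa and H2-Eb1, or for H2-Ab1, but 8 of the 40 genes had no window. The core GAGGAAG, bound by the myeloid and B cell factor PU.1, was in 10 windows, 27.8% against 10.6%, and TTGCNNAA, bound by C/EBP factors, was in 9 windows, 25.0% against 9.56%. The Plaur window also held both of these, GAGGAAG beginning 131 and TTGCNNAA 59 bases before the start. All 4 motifs were searched on both strands. The match to TGANTCA in Plaur was the 1 found in a member that passed the test, and a match of letters says nothing of binding.

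Plaur (probe set 10550906) had log2 values of 5.99, 6.11 and 5.96 in the 3 wildtype arrays (replicates 1 to 3) and of 7.15, 6.71 and 6.99 in the 3 knockout arrays, in the same order. The wildtype values lay close together, and the lowest knockout value stood clear of the highest wildtype value. Its mean rose from 6.02 ± 0.08 to 6.95 ± 0.22 (SD, n = 3 each), a 1.91-fold difference (0.93 ± 0.12 on the log2 scale, limma standard error; adjusted p = 0.00754). The difference was 0.83 to 1.05 over the 6 fits with 1 array removed, and Plaur passed in 5 of them. The exception was the fit without wildtype replicate 3 (difference 0.90, adjusted p = 0.0617).

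Lyz2 (probe set 10372648) was at 5.68, 4.97 and 5.22 in the wildtype group and at 7.03, 6.82 and 6.17 in the knockout group. All knockout values were above all wildtype values, with the closest pair being wildtype replicate 1 and knockout replicate 3. Lyz2 rose 2.61-fold (1.39 ± 0.23 on the log2 scale, adjusted p = 0.0256). It passed in 2 of the 6 fits with 1 array removed, without wildtype replicate 1 and without knockout replicate 3. In the other 4 its adjusted p was 0.0821 to 0.153, with a difference of 1.21 to 1.35. The neighbouring paralog Lyz1, with 0 protein-coding genes between them and picked once its values were known, was at 4.811, 3.755 and 4.650 in the wildtype group and 5.131, 5.400 and 4.830 in the knockout group (difference 0.72, adjusted p = 0.494). Labelled cDNA of either lysozyme may bind probes of the other, so their separate values are uncertain.

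**Figure D1:**
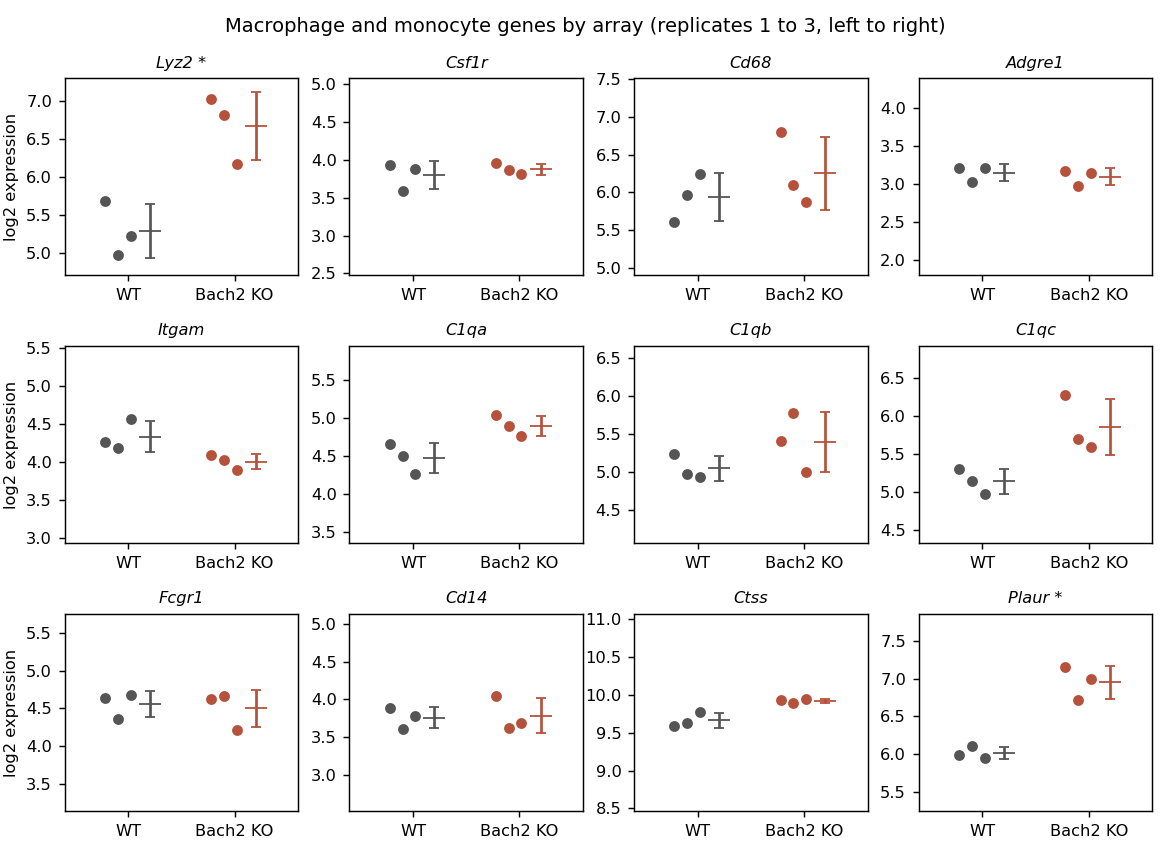
Log2 expression of the 12 macrophage and monocyte genes in 3 wildtype (grey) and 3 Bach2 knockout (red) arrays. Points are arrays, the bars to their right are mean ± SD (n = 3), every panel spans the same number of log2 units, and an asterisk marks adjusted p under 0.05 (limma). Lyz2 and Plaur stand apart between the genotypes, whereas the points of Csf1r and Adgre1 overlap.

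C1qa, C1qb and C1qc encode the 3 chains of the complement component C1q, which tissue macrophages make, and they lie next to each other in gene order. None of the 3 passed the test over all genes (limma; 2 at an unadjusted p under 0.05). C1qc was at 5.30, 5.15 and 4.98 in the wildtype group and 6.28, 5.70 and 5.59 in the knockout group, a difference of 0.71 ± 0.17 (adjusted p = 0.158). C1qa was at 4.66, 4.50 and 4.26 in the wildtype group and 5.04, 4.89 and 4.76 in the knockout group, a difference of 0.42 ± 0.12 (adjusted p = 0.325). For both genes the groups did not overlap, and wildtype replicate 3 was the lowest and knockout replicate 1 the highest array. C1qb was at 5.232, 4.967 and 4.934 in the wildtype group and 5.402, 5.780 and 4.991 in the knockout group, and its groups overlapped (difference 0.35, adjusted p = 0.807). The mean of the 3 chains was 5.06, 4.87 and 4.72 in the wildtype group and 5.57, 5.46 and 5.11 in the knockout group. Knockout replicate 3, the knockout array with the lowest Lyz2, was also the knockout array with the lowest value for each of the 3 chains.

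The receptors that define macrophages did not pass the test. Csf1r, the receptor for the growth factor that macrophages depend on, was at 3.93, 3.59 and 3.88 in the wildtype group and 3.96, 3.86 and 3.81 in the knockout group. Its difference was 0.08, with a 95% interval of -0.17 to 0.33 (limma, not adjusted for the number of genes, as for the intervals that follow). Adgre1, an adhesion receptor that marks mature macrophages, was at 3.21, 3.02 and 3.21 in the wildtype group and 3.17, 2.97 and 3.14 in the knockout group, a difference of -0.06 (-0.29 to 0.18). For these 2 receptors the groups overlapped. Their means over the 6 arrays, 3.84 and 3.12, lay under the median gene at 5.13. Whether such probe sets measure a transcript above background was not tested, so the narrow intervals describe the probe signal and set no limit on the transcript. Fcgr1, the high-affinity receptor for IgG, differed by -0.06 (-0.37 to 0.25), and Cd14, a co-receptor for bacterial lipopolysaccharide, by 0.03 (-0.26 to 0.32). The signs of these 4 differences turned when single arrays were left out.

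The other 3 genes of the group pointed different ways without passing the test. Itgam, the integrin chain CD11b of macrophages and neutrophils, was at 4.26, 4.18 and 4.56 in the wildtype group and 4.09, 4.02 and 3.89 in the knockout group. All its knockout values lay below all wildtype values (difference -0.33 ± 0.12, adjusted p = 0.528). Ctss, a lysosomal protease that trims the invariant chain of MHC class II, was at 9.59, 9.62 and 9.77 in the wildtype group and 9.94, 9.89 and 9.94 in the knockout group, again without overlap (difference 0.26 ± 0.09, adjusted p = 0.525). Cd68, a lysosomal glycoprotein, was at 5.62, 5.97 and 6.25 in the wildtype group and 6.80, 6.09 and 5.88 in the knockout group, which overlapped (difference 0.31 ± 0.23, adjusted p = 0.932). Without knockout replicate 1 the Cd68 difference was 0.040. Over the 12 genes the median difference was 0.29 against -0.01 over all genes, and 9 were above 0. By array the mean of the 12 was 5.165, 5.004 and 5.124 in the wildtype group and 5.626, 5.419 and 5.256 in the knockout group. Without Lyz2, the mean of the other 11 was 5.12, 5.01 and 5.12 against 5.50, 5.29 and 5.17, a smaller margin. Without Lyz2 and Plaur, the mean of the other 10 was 5.03, 4.90 and 5.03 against 5.33, 5.15 and 4.99, so that knockout replicate 3 lay within the wildtype range. The 2 genes left out had the largest differences of the 12, so a smaller margin without them was bound to follow.

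Of 30 further macrophage and monocyte genes taken from a list, 28 were measured and 0 passed the test over all genes (limma; 5 higher and 1 lower at an unadjusted p under 0.05). Knockout values all lay above wildtype values for 6 of the 28, 21.4% against the 5.13% of all genes, and all below for 2, 7.14% against 6.57%. The 2 with the smallest p were Apoe, the lipid carrier of macrophages, and Fcer1g, the signalling chain shared by several Fc receptors. Apoe was at 7.58, 7.17 and 7.09 in the wildtype group and 8.28, 7.96 and 7.70 in the knockout group (difference 0.70 ± 0.17, adjusted p = 0.158). Fcer1g was at 4.78, 4.78 and 4.84 in the wildtype group and 5.31, 5.32 and 5.01 in the knockout group (difference 0.41 ± 0.11, adjusted p = 0.245). The median difference of the 28 was 0.06. Their mean was 4.72, 4.47 and 4.62 in the wildtype group and 4.80, 4.70 and 4.63 in the knockout group, so that wildtype replicate 1 lay above knockout replicates 2 and 3.

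**Figure D2:**
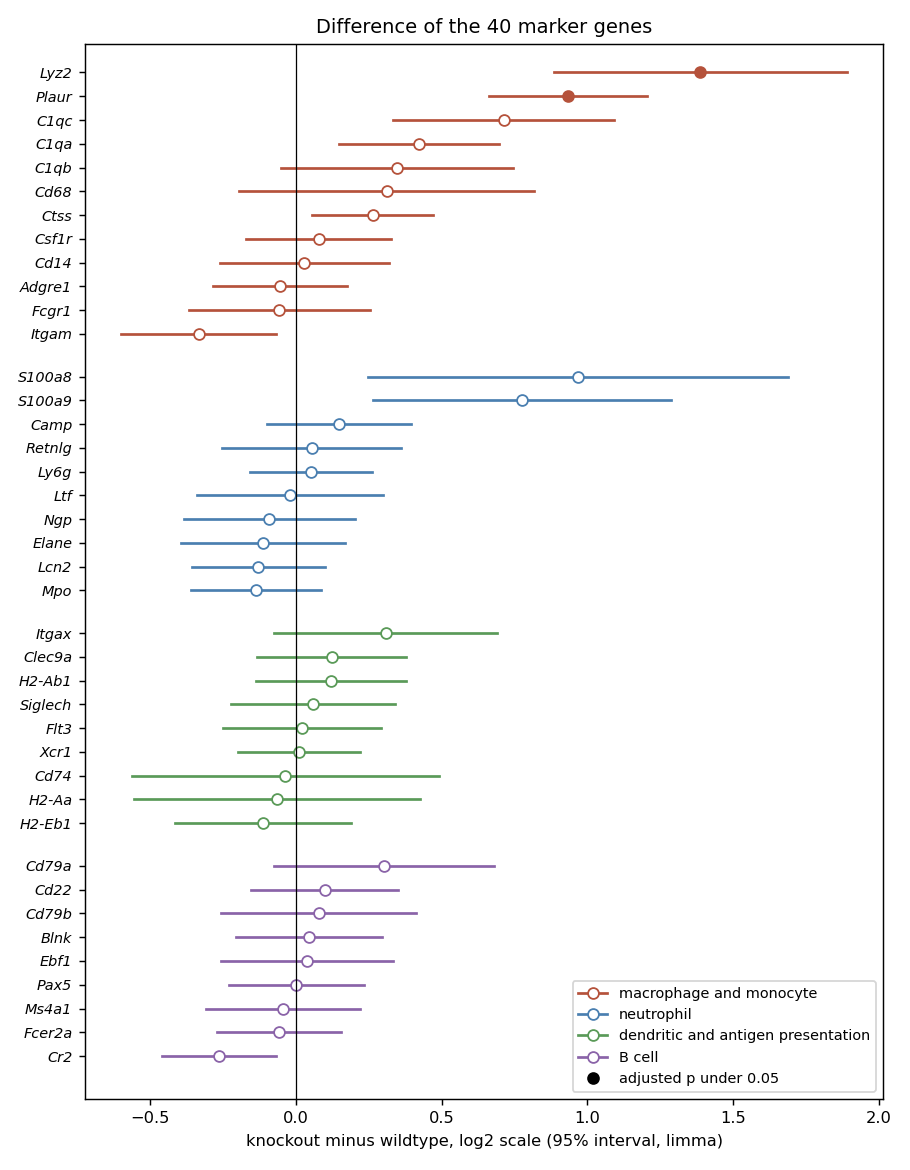
Knockout minus wildtype difference of the 40 genes on the log2 scale (horizontal axis), by group and in order of size. Points are estimates from 3 arrays of each genotype, lines are 95% intervals from limma that are not adjusted for the number of genes, and filled points have an adjusted p under 0.05. Lyz2 and Plaur are the 2 filled points, and S100a8 and S100a9 are the neutrophil genes farthest from 0.

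Among the neutrophil genes, the values of S100a8 and S100a9 stood farthest from 0 and those of the 8 others lay near it. The products of this pair combine to form calprotectin, a calcium- and zinc-binding protein of neutrophils and monocytes, and the genes are neighbours. S100a8 was at 3.39, 3.29 and 3.92 in the wildtype group and 4.69, 3.64 and 5.17 in the knockout group, so that knockout replicate 2 lay within the wildtype range (difference 0.97 ± 0.32, adjusted p = 0.456). S100a9 was at 4.17, 3.40 and 4.10 in the wildtype group and 4.70, 4.25 and 5.05 in the knockout group, which did not overlap (difference 0.78 ± 0.23, adjusted p = 0.34). For both genes knockout replicate 3 was the highest and knockout replicate 2 the lowest knockout array. Lyz2 and each C1q chain instead had their lowest knockout value on knockout replicate 3. Plaur, like S100a8 and S100a9, had its lowest knockout value on knockout replicate 2, but its highest on knockout replicate 1. The difference of S100a8 depended on single arrays, ranging from 0.63 without knockout replicate 3 (adjusted p = 0.933) to 1.40 without knockout replicate 2 (adjusted p = 0.0347, the 1 of the 6 such fits in which it passed).

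The genes that define neutrophils and their precursors did not follow that pair. Ly6g, the surface antigen of mature neutrophils, was at 3.63, 3.59 and 3.71 in the wildtype group and 3.75, 3.73 and 3.60 in the knockout group (difference 0.05, interval -0.16 to 0.26). Mpo, the peroxidase of the primary granules, was at 4.47, 4.36 and 4.52 in the wildtype group and 4.37, 4.38 and 4.18 in the knockout group (difference -0.14, interval -0.36 to 0.09). Neutrophil elastase, Elane, differed by -0.11 and the granule proteins Ngp by -0.09, Camp by 0.15, Ltf by -0.02, Lcn2 by -0.13 and Retnlg, a resistin-like secreted protein, by 0.05. The groups overlapped for each of these 8 genes. The median difference over the 10 neutrophil genes was 0.02. Of 16 further neutrophil genes measured, 0 passed in either direction (limma; 0 higher and 1 lower at an unadjusted p under 0.05), with a median of -0.02. The 2 with the smallest p were the chemokine receptor Cxcr2 (difference -0.32, adjusted p = 0.493) and the lectin Clec4d (-0.17, adjusted p = 0.852).

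**Figure D3:**
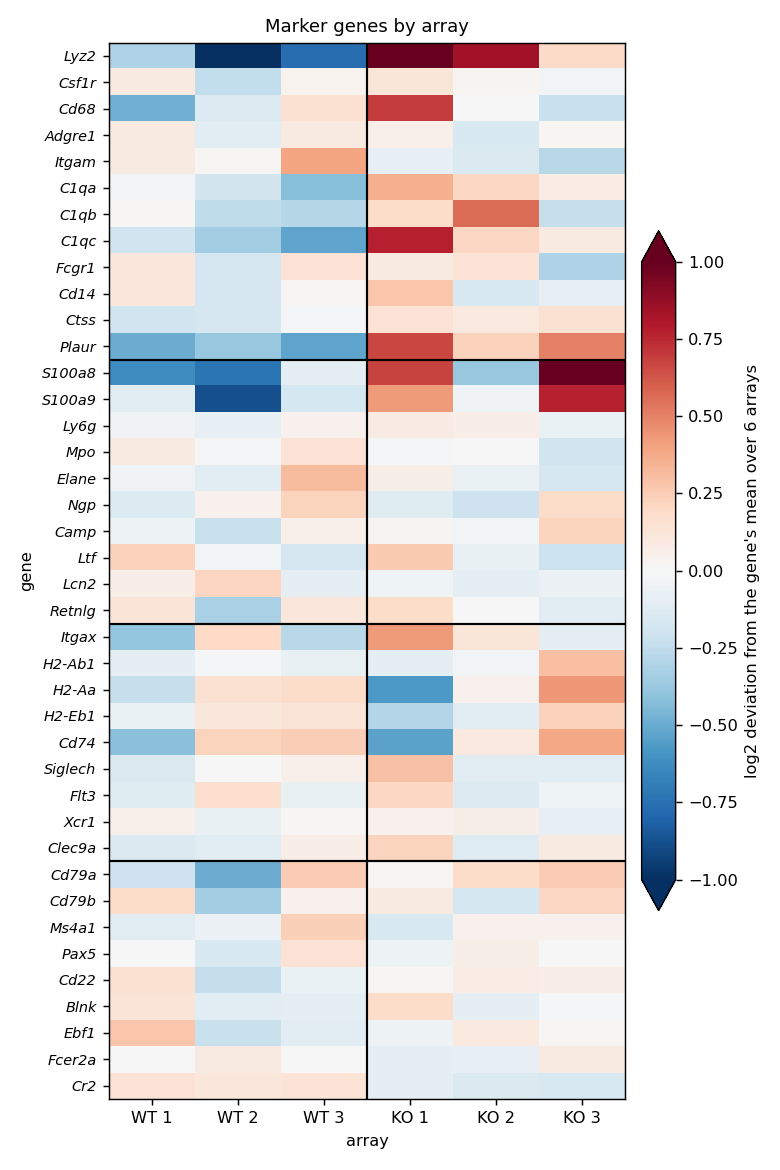
Deviation of each of the 40 genes from its own mean over the 6 arrays, on the log2 scale, for 3 wildtype (WT) and 3 knockout (KO) arrays. Horizontal lines part the macrophage, neutrophil, dendritic and B cell groups from top to bottom, red is above and blue below the gene's mean, and colours saturate beyond 1 log2 unit. H2-Aa, H2-Eb1 and Cd74 are lowest on KO 1 and highest on KO 3, while Lyz2 and C1qc are highest on KO 1.

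Of the 9 genes of dendritic cells and antigen presentation, 0 passed the test in either direction (limma; also 0 at an unadjusted p under 0.05), and the groups overlapped for each. H2-Ab1, H2-Aa and H2-Eb1 encode chains of the MHC class II molecules that present peptides to CD4 T cells, and Cd74 encodes the invariant chain that escorts them. H2-Ab1 was at 6.82, 6.89 and 6.83 in the wildtype group and 6.82, 6.88 and 7.21 in the knockout group (difference 0.12, interval -0.14 to 0.38). H2-Aa was at 7.33, 7.71 and 7.75 in the wildtype group and 6.99, 7.60 and 8.00 in the knockout group (difference -0.07, interval -0.56 to 0.43). Cd74 was at 8.10, 8.74 and 8.76 in the wildtype group and 7.98, 8.61 and 8.90 in the knockout group (difference -0.04, interval -0.56 to 0.49), and H2-Eb1 differed by -0.11. H2-Aa, H2-Eb1 and Cd74 thus shared 1 pattern, lowest on knockout replicate 1 and highest on knockout replicate 3. H2-Ab1 was likewise highest on knockout replicate 3. The mean of the 4 was 7.14, 7.46 and 7.47 in the wildtype group and 6.97, 7.34 and 7.68 in the knockout group, so the spread within a genotype exceeded the difference between genotypes.

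Knockout replicate 3 was also the array with the highest value for all 7 measured genes of a list of CD8 and double-positive thymocytes, the cell stage before CD4 single-positive cells. Of the 7, 0 passed the test over all genes (limma; 3 higher and 0 lower at an unadjusted p under 0.05, 42.9% against 3.04% of all genes for higher). All 7 differences were above 0, with a median of 0.46 against -0.01 over all genes and 0.29 over the 12 macrophage and monocyte genes. The groups did not overlap for 1 of the 7, 14.3% against 11.7% of all genes in either direction. The 2 with the smallest p were Arpp21 (difference 0.95, adjusted p = 0.305) and Rag1, which encodes a subunit of the recombinase that assembles antigen receptor genes (1.27, adjusted p = 0.591). The mean of the 7 was 6.30, 6.64 and 6.72 in the wildtype group and 6.52, 7.11 and 7.79 in the knockout group, so that knockout replicate 1 lay below wildtype replicates 2 and 3 and the other knockout arrays above all wildtype arrays. Lyz2 and the C1q chains, by contrast, were lower on knockout replicate 3 than on the other knockout arrays. The part of these cells in the values of MHC class II genes and of S100a8 and S100a9 was not tested.

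The markers of single dendritic cell types overlapped between the genotypes. Xcr1, the chemokine receptor of cross-presenting dendritic cells, was at 3.40, 3.27 and 3.36 in the wildtype group and 3.39, 3.41 and 3.27 in the knockout group (difference 0.01, interval -0.20 to 0.22). Siglech, a lectin of plasmacytoid dendritic cells, was at 4.42, 4.57 and 4.62 in the wildtype group and 4.86, 4.46 and 4.46 in the knockout group (difference 0.06, interval -0.22 to 0.34). Clec9a, a receptor for dead cells on the same dendritic cells as Xcr1, was at 2.51, 2.55 and 2.72 in the wildtype group and 2.88, 2.53 and 2.75 in the knockout group (difference 0.12). Flt3, a growth factor receptor of dendritic cells and progenitors, differed by 0.02. Itgax, the integrin chain CD11c, was at 3.02, 3.61 and 3.14 in the wildtype group and 3.84, 3.54 and 3.32 in the knockout group (difference 0.31, interval -0.07 to 0.69).

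A list of further dendritic and antigen presentation genes, 22 of 24 measured, had 16 differences below 0 and 6 above. H2-Ob, a chain of H2-O, which restrains the loading of peptides onto MHC class II, fell from 6.57 to 5.92 (difference -0.65 ± 0.10, adjusted p = 0.0209). It was at 6.47, 6.67 and 6.59 in the wildtype group and 6.05, 5.87 and 5.85 in the knockout group, with no overlap. H2-Ob was the 1 gene of the 22 that passed, and it did not pass in 3 of the 6 fits with 1 array removed (adjusted p 0.112 to 0.119). Knockout values lay below wildtype values for 7 of the 22, 31.8% against 6.57% of all genes, and above for 0. The median difference was -0.14. At an unadjusted p under 0.05 (limma), 0 of the 22 were higher and 6 lower, 27.3% against 3.87% of all genes for lower. Cd83, picked once its values were known, had the largest difference of the 22 (-0.85 ± 0.19, adjusted p = 0.115), with no overlap. H2-Oa, the partner chain, picked once its values were known, was at 8.61, 8.56 and 8.38 in the wildtype group and 8.24, 7.84 and 8.00 in the knockout group (difference -0.49 ± 0.12, adjusted p = 0.185).

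Of the 9 B cell genes, 0 passed (limma; 0 higher and 1 lower at an unadjusted p under 0.05), and their median difference was 0.04. Cd79a and Cd79b encode the signalling chains of the B cell receptor. Cd79a was at 4.46, 4.16 and 4.91 in the wildtype group and 4.67, 4.84 and 4.92 in the knockout group (difference 0.30, interval -0.07 to 0.68), and Cd79b differed by 0.08. Pax5, the transcription factor that commits cells to the B lineage, was at 4.96, 4.80 and 5.10 in the wildtype group and 4.90, 5.01 and 4.95 in the knockout group (difference 0.00, interval -0.23 to 0.23). Ebf1, which acts with Pax5, differed by 0.04, the adaptor Blnk by 0.04, and Ms4a1, which encodes CD20, by -0.04. The inhibitory receptor Cd22 was at 4.13, 3.73 and 3.90 in the wildtype group and 3.98, 4.04 and 4.04 in the knockout group (difference 0.10), and Fcer2a, the low-affinity IgE receptor CD23, differed by -0.06. Wildtype replicate 2 was the lowest array for 6 of the 9 genes.

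Cr2, the complement receptor CD21 of B cells and follicular dendritic cells, was the B cell gene whose groups did not overlap. This was 11.1% of the 9 genes, against 11.7% of all genes in either direction. Cr2 was at 3.39, 3.35 and 3.38 in the wildtype group and 3.15, 3.10 and 3.08 in the knockout group. Its spread within either genotype was small (difference -0.27 ± 0.09, limma, adjusted p = 0.445). Its mean of 3.24 lay under the median gene at 5.13, and signal above background was not tested. Of 15 further B cell genes measured, 0 passed (limma; also 0 at an unadjusted p under 0.05), with a median difference of 0.07. The 2 with the smallest p were the coactivator Pou2af1 (difference -0.23, adjusted p = 0.786) and the chemokine receptor Cxcr5 (-0.43, adjusted p = 0.847).

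**Figure D4:**
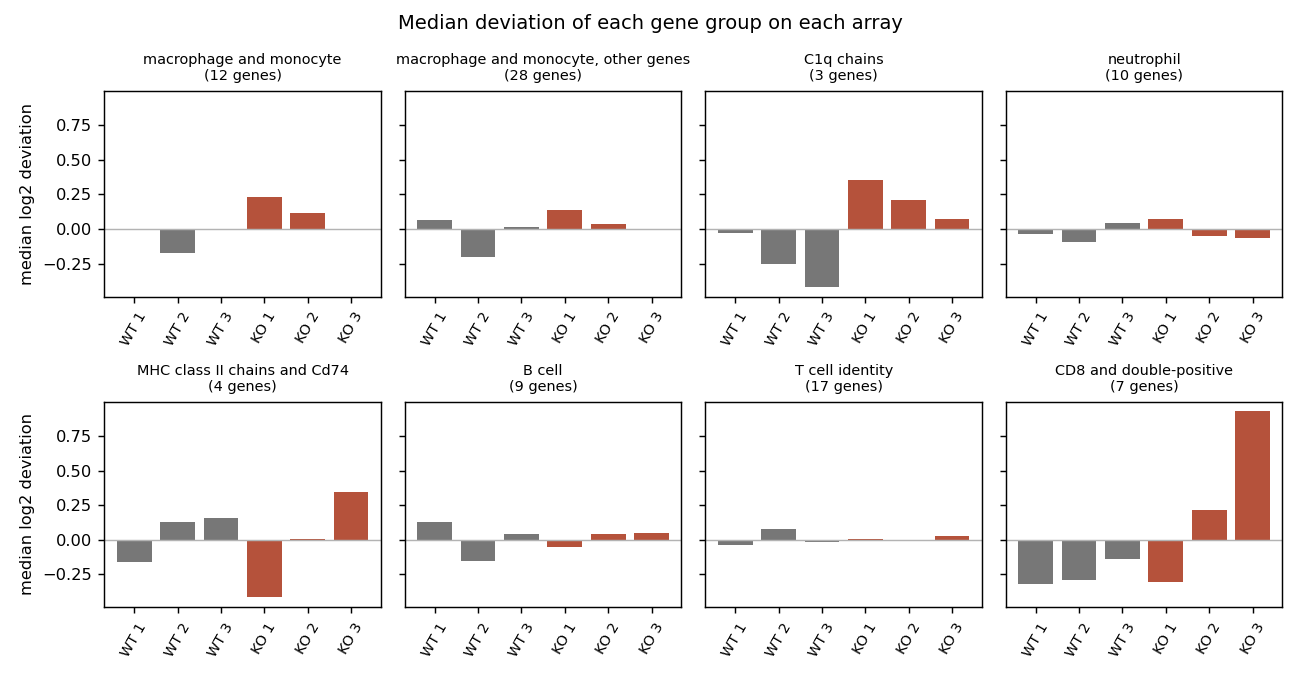
Median log2 deviation of 8 gene groups on each array, each gene taken relative to its own mean over the 6 arrays (grey wildtype, red knockout). The C1q chains lie above 0 on all 3 knockout arrays and below 0 on all 3 wildtype arrays, the MHC class II genes and Cd74 run from -0.41 on KO 1 to 0.34 on KO 3, and the medians of the T cell identity genes stay near 0.

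Across the 40 genes, 15 were highest on knockout replicate 1, 37.5% against 16.0% of all genes, and 10 on knockout replicate 3, 25.0% against 10.5%. Wildtype replicate 2 was the lowest array for 14 of the 40, 35.0% against 25.1% of all genes. Of the 12 macrophage and monocyte genes, 7 were highest on knockout replicate 1, and without that array the mean difference of the 12 was 0.24 in place of 0.34. The standard deviation was larger in wildtype than in knockout arrays for 12957 of 19938 genes. It was so for 6 of the 9 B cell, 5 of the 12 macrophage and monocyte and 5 of the 10 neutrophil genes. Among the 9 dendritic and antigen presentation genes it was so for 1. In 29 of the 40 genes the mean over 6 arrays was at or under 5.13, the median over all genes. Both members that passed were among the other 11.

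The genotype labels were checked against Bach2 itself, which was at 7.89 to 8.20 in the wildtype group and 6.42 to 6.52 in the knockout group. The 17 measured T cell identity genes cannot check the genotype. Their groups did not overlap for 4, 23.5% against 11.7% of all genes in either direction. Of these 17 genes, 0 passed (limma, with 1 higher and 1 lower at an unadjusted p under 0.05). The 2 with the smallest p were the co-stimulatory receptor Cd28 (difference 0.25, adjusted p = 0.615) and the transcription factor Gata3 (-0.26, adjusted p = 0.653). The mean of these 17 was 10.35 to 10.48 on the 6 arrays. Thy1, a surface glycoprotein of T cells singled out once its values were known, was at 11.61, 11.58 and 11.53 in the wildtype group and 10.45, 11.40 and 11.54 in the knockout group. It was thus low on knockout replicate 1, the array on which 7 of the 12 macrophage and monocyte genes were highest. Whether the low Thy1 bears on their values was not tested. The T cell identity genes as a set were not low on that array. Of the 17, 3 were highest and 4 lowest on it, and their median deviation there was 0.002. The counts of calls rested on 3 arrays of each genotype.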

How the data were processed

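The authors deposited 1 log2 value per probe set and array. The submitters' processing notes name RMA and Partek, with no versions. The scale was read from the values, 1.09 to 13.2. RMA forces arrays onto one distribution and so hides any shift common to every gene. No genome build was given. Arrays give no read depth, and their number, 3 per genotype, limits the precision.

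Of 35556 probe sets, 21789 had 1 symbol in the platform annotation, and the brightest probe set on average stood for its gene. All 40 members matched a RefSeq gene of assembly GRCm38.p6 by gene number. Knockout minus wildtype differences were fitted across all 19938 genes with limma 3.58.1 in R 4.3.3 (lmFit, eBayes, Benjamini-Hochberg over all genes, threshold 0.05). The procedure was tested on simulated data for this comparison with 19938 genes, where it recovered 90% of genes raised by 1 and 36% of those raised by 0.5 on the log2 scale. Promoter windows came from RefSeq. Figures were drawn with matplotlib 3.10.9. The members and the further lists, 148 genes of which 132 were measured, were chosen with earlier results of these data known. Named further genes are those past the test or, where there were none, the 2 with the smallest p per list. Exceptions are said in their place to be picked once their values were known, and the natural killer list is named in full.

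Alternatives were priors that follow expression level or are robust, no moderation, dropping dim genes, centring each array on its median, quantile normalization once more, weighting arrays, the mean over a gene's probe sets, a fit to all probe sets, the replicate number as a block, and removal of each array in turn. P-values set each gene's difference against its spread within genotypes over these 6 samples. In all settings but that without moderation, limma adjusted this spread using the spread of all genes fitted.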

Additional observations from a re-analysis of the deposited data

How the results depend on the processing

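Plaur and Lyz2 passed in 8 of the 10 settings other than leaving out an array. Their direction did not turn in any fit run, but most of these fits could not have turned it. Removing 1 array could not, because the groups of both genes did not overlap. Of the other settings, only median centring, the second quantile normalization and array weights changed their differences. Taking the mean over probe sets could not, since each had a single probe set. Plaur and Lyz2 were lost without moderation (adjusted p 0.394 and 0.616) and with all 35556 probe sets tested (0.13 and 0.298). Members higher numbered 0 in each of these 2 settings. H2-Ob was lost in the same 2 settings (adjusted p 0.355 and 0.17), which were added for it after its values were seen. Over all genes these settings gave 1 higher and 0 lower, and 29 higher and 8 lower, against 70 and 43; a prior that followed expression level gave 78 lower. With the replicate number as a block, 4 members were higher, C1qc (adjusted p = 0.0344) and S100a9 (0.0214) being added. Whether equal numbers pair the samples is not settled by the values, with 3 arrays per genotype. Same-numbered deviations correlated at 0.21, 0.11 and -0.07 across genes. Wildtype replicate 1 correlated best with its own number, and wildtype replicates 2 and 3 with another number. The block gave 79 genes higher and 55 lower. Without dim genes 11 members were left, and the mean difference of the macrophage and monocyte genes was 0.66 over fewer genes. No neutrophil gene was left in that setting.

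Leaving out each array gave 29 to 82 genes higher, 18 to 66 lower and 0 to 2 members higher, with 0 members and the fewest genes in each direction without wildtype replicate 3. Of the 40 members, 22 kept their sign in all 6 of these fits. Differences near 0 turned sign, with ranges of -0.15 to 0.089 for Ltf, -0.076 to 0.12 for Siglech, -0.077 to 0.11 for Flt3, -0.025 to 0.14 for Csf1r, -0.10 to 0.11 for Cd14, -0.092 to 0.13 for Retnlg, -0.25 to 0.22 for Cd74, -0.027 to 0.053 for Xcr1, -0.074 to 0.19 for Cd79b, -0.074 to 0.074 for Pax5, -0.065 to 0.19 for Ebf1, -0.15 to 0.085 for Fcgr1, -0.20 to 0.015 for Elane, -0.30 to 0.20 for H2-Aa, -0.11 to 0.066 for Ms4a1, -0.26 to 0.0053 for H2-Eb1, -0.038 to 0.12 for Blnk and -0.12 to 0.0072 for Adgre1. With array weights the sign turned for Cd14 (-0.041), Retnlg (-0.040), Cd74 (0.026), Xcr1 (-0.0077), Cd79b (-0.0058) and Pax5 (-0.041), and with a second quantile normalization for Ltf (0.0026). The cause of these turns was not tested.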

Other observations

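Markers of other cells that a thymocyte sort could hold were measured alongside. Of 8 natural killer cell genes, 0 passed (limma, with 0 higher and 2 lower at an unadjusted p under 0.05). Their median difference was -0.07, and 6 lay below 0, as did 10734 of all 19938 genes. The 2 lower were 25.0% of the list, against 3.87% of all genes. Eomes, a T-box factor of natural killer and CD8 T cells, differed by -0.70 (limma, adjusted p = 0.106). It was at 5.11, 5.61 and 5.66 in the wildtype group and 4.63, 4.92 and 4.74 in the knockout group. The granule protein gene Nkg7 differed by -0.76 (adjusted p = 0.338). Differences were 0.03 for Ncr1, -0.06 for Klrb1c, -0.08 for Klra8, 0.00 for Klre1, -0.04 for Tbx21 and -0.51 for Klrg1. The means of Ncr1, Klrb1c, Klra8 and Klre1 over the 6 arrays were 2.60 to 3.02, under the median gene at 5.13. Of 7 erythroid and platelet genes and of 12 thymic epithelial and stromal genes measured, 0 passed (limma; also 0 at an unadjusted p under 0.05), with median differences of -0.08 and 0.00. The 2 with the smallest p were Alas2 (-0.20) and Epor (-0.16) in the first list and Pdgfra (0.18) and Epcam (-0.11) in the second.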
